A study of Homo sapiens with 8 samples.

Results

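The genes described here are the nuclear genes for subunits of the mitochondrial oxidative phosphorylation complexes, measured by RNA sequencing in HAP1 cells with and without the chromatin remodelling subunits SMARCB1 and SMARCA4. They were taken by symbol from a table of 19541 genes, as the symbols that start with NDUFA, NDUFB, NDUFC, NDUFS, NDUFV, UQCR, COX4 to COX8 or ATP5, together with SDHA, SDHB, SDHC and SDHD. Of 101 symbols that matched, 8 of the NDUFAF assembly factors, 2 pseudogenes and 3 antisense genes were left out. The remaining 88 genes comprise 40 of complex I, 4 of complex II, 9 of complex III, 16 of complex IV and 19 of complex V. No measured value entered this choice. The symbols also bring in isoforms restricted to muscle or testis, the readthrough transcripts NDUFC2-KCTD14 and ATP5J2-PTCD1, and relatives such as ATP5S and ATP5SL that are not subunits of the enzyme.

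Oxidative phosphorylation takes place in the inner mitochondrial membrane. Complexes I and II pass electrons from NADH and succinate to ubiquinone, complex III passes them to cytochrome c and complex IV to oxygen, while complexes I, III and IV pump protons that drive ATP synthesis by complex V. Most subunits are encoded in the nucleus, and a small set is encoded in mitochondrial DNA and is not part of the genes described here. The nuclear genes are known as a group with broad, steady expression, and NRF1 and the ETS factor GABP are established regulators of many of them.

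HAP1 is an established near-haploid human line derived from a chronic myeloid leukaemia line. SMARCB1 is a core subunit of the SWI/SNF (BAF) remodelling complexes and SMARCA4 is an ATPase of these complexes. Each genotype had 2 samples. Wildtype cells were taken at passages 9 and 12. The SMARCB1 null samples came from CRISPR guides 1 and 2 for SMARCB1, and the SMARCA4 null samples from guides 1 and 2 for SMARCA4, each at passage 12. The double null (SMARCB1 and SMARCA4) combined guide 1 for SMARCB1 with guide 2 for SMARCA4 at passages 15 and 18, so its later passage and the loss of both genes cannot be told apart. The labels do not say that the wildtype samples, or those of the double null, were separate cultures. The p-values below rest on only 2 samples of each genotype and cover no spread beyond these samples. How the authors' test estimated the spread was not given, so a small p-value of theirs need not mean close replicates. The edgeR test on recovered reads estimated the spread over all 8 libraries and shared information across genes. The 3 comparisons share the 2 wildtype libraries.

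The promoters of 6 genes whose values the results below turn on are shown because they let the sequence beside the annotated start be compared between genes that rose and a gene that fell. Each is the stretch of 250 bases before the annotated start, 5′ to 3′, from RefSeq on GRCh38.p14. Capitals mark a match to the NRF1-like motif (GCGC, any 2 letters, then GCGC) or to the ETS-like motif CCGGAAG, each searched on both strands. The positions are chr16:21953111-21953360 on the plus strand for UQCRC2, chr18:46104228-46104477 on the minus strand for ATP5A1 (now named ATP5F1A), chr1:17054033-17054282 on the minus strand for SDHB, chr19:29213152-29213401 on the minus strand for UQCRFS1, chr11:78079863-78080112 on the minus strand for the NDUFC2-KCTD14 readthrough and chr11:67606686-67606935 on the plus strand for NDUFV1.
UQCRC2: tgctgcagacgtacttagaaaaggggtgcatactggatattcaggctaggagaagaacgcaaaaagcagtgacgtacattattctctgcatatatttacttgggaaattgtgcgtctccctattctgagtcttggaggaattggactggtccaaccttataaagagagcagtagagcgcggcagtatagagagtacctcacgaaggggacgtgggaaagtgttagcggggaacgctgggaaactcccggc
ATP5A1: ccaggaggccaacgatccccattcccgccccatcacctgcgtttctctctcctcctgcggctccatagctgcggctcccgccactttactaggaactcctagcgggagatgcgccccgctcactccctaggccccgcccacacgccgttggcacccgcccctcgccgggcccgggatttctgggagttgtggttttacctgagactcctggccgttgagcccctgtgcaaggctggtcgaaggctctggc
SDHB: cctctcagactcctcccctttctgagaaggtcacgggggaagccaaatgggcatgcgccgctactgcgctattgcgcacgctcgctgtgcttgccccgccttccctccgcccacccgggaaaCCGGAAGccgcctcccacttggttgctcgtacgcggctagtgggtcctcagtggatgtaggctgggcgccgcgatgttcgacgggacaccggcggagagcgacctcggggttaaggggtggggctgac
UQCRFS1: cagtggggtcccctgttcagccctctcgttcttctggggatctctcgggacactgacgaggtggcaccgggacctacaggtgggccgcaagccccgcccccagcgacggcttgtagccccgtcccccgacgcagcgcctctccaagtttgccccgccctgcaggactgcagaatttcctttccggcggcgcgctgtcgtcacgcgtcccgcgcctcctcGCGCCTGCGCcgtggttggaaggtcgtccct
NDUFC2-KCTD14: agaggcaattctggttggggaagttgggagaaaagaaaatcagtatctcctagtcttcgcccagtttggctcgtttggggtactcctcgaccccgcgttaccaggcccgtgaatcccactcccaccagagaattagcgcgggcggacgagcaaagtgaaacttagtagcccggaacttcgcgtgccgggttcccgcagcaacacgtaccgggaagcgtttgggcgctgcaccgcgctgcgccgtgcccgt
NDUFV1: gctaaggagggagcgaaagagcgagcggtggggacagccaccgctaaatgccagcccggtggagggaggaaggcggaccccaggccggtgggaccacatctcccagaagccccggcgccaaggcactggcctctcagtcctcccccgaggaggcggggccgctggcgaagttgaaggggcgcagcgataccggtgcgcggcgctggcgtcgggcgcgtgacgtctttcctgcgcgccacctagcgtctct

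Among these promoters, SDHB held an ETS-like match and UQCRFS1 an NRF1-like match close to the start, and the other 4 held neither set of letters in this window. RefSeq promoters were matched for 71 of the 88 genes. The NRF1-like letters were present in 15 of these 71 promoters (21.1%) and in 10.5% of 15842 promoters of protein-coding genes. The ETS-like letters were present in 16 of the 71 (22.5%) and in 11.8% of all promoters. Among the promoters of 11 matched genes that passed the test in any null, 2 held the NRF1-like letters (18.2%) and 2 the ETS-like letters (18.2%). SDHD, whose promoter is not shown, was the 1 of these 11 that held both. A match describes the letters only and shows no binding.

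The deposited values are the authors' comparisons of each null with wildtype, with total reads per gene over the 8 samples. The depths implied by the ratios ran from 99653100 to 151045000 reads per library. From the authors' deposited table, the SMARCB1 ratio to wildtype was 0.109 in the SMARCB1 null, 0.970 in SMARCA4-null cells and 0.182 in the double null. For SMARCA4 these ratios were 0.947, 0.0918 and 0.152 by the authors' deposited table, so both targets were low where the labels say so. For 37 of the 88 genes, reads in each library could be solved from the ratios and the whole-number total, and levels below are RPM, the reads of a gene divided by its library's depth and scaled to 1000000 reads. The 2 libraries of a genotype are known only as the deeper and the shallower, not by passage or guide. In these bulk samples, fewer cells of a type and less RNA per cell cannot be told apart.

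Small rises were the usual direction. Among genes with at least 10000 total reads that passed the test, NDUFC2 had the largest rise of complex I and SDHB of complex II. UQCRC2 had that of complex III and ATP5E that of complex V. NDUFV1 was the 1 gene of that abundance that fell, and COX6B2, with 322 total reads, fell as well. At an adjusted p (FDR) under 0.05 by the authors' deposited table, 8 genes rose and 1 fell in the SMARCB1 null, or 10.2% of the 88, beside 13.6% of all 19541 genes. In SMARCA4-null cells 4 rose and 0 fell by the authors' deposited table, or 4.55%, beside 11.9% of all genes, and 7 of the 88 had an unadjusted p under 0.05. In the double null 5 rose and 1 fell by the authors' deposited table, or 6.82%, beside 18% of all genes. Over the 9415 genes with at least 10000 total reads, the level that 79 of the 88 genes reach, the shares called were 15.8%, 13.4% and 19.3% for the SMARCB1, SMARCA4 and double nulls. Called genes were thus less frequent among the oxidative phosphorylation genes than in either background in each null, a description with no test. In total, 13 of the 88 genes passed in at least 1 null and 75 in none.

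The shift was small but broad. The median ratio to wildtype of the 79 abundant genes was 1.12 in the SMARCB1 null, 1.07 in SMARCA4-null cells and 1.10 in the double null, from the authors' deposited table, beside 1.03, 1.01 and 1.03 for all 9415 abundant genes. Of these 79 genes, 71, 59 and 63 had a ratio above 1 from the authors' deposited table, or 89.9%, 74.7% and 79.7%, beside 57.0%, 51.7% and 55.8% of all abundant genes. The interquartile range of their log2 ratio was 0.07 to 0.27, 0.00 to 0.16 and 0.03 to 0.23. Only 1 of the 80 genes with at least 1000 reads, NDUFC2, differed from wildtype by 1.5-fold or more, in either direction, in any null.

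**Figure D1:**
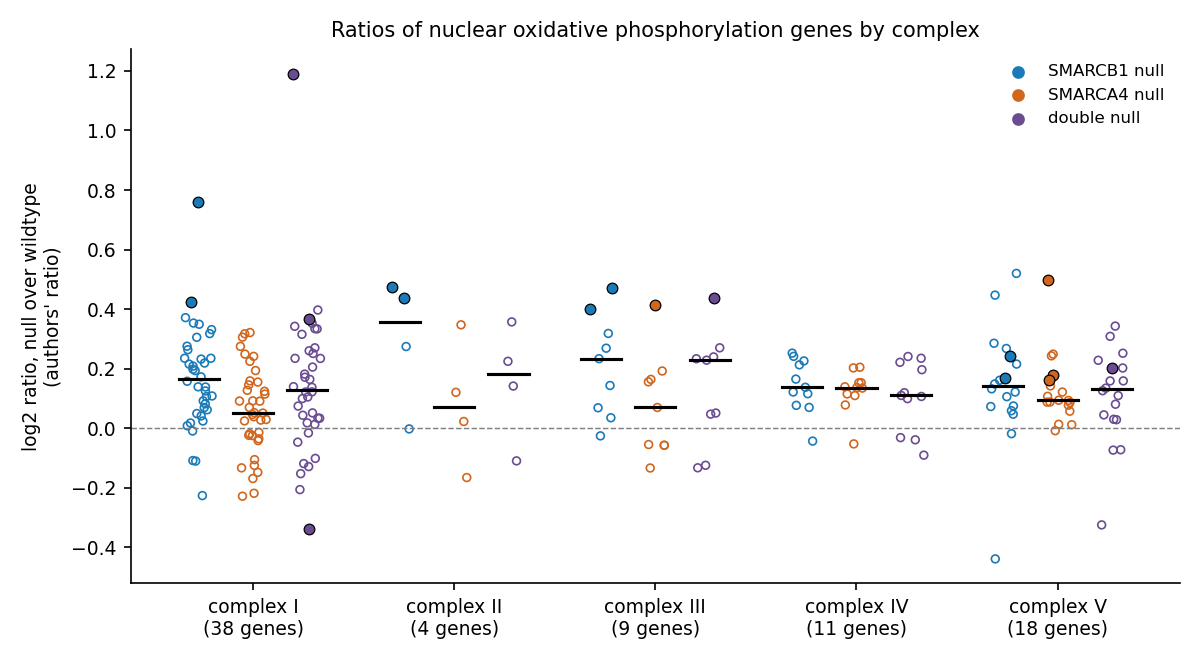
Log2 ratio of each null to wildtype (y axis, the authors' ratio) for the 80 genes with at least 1000 total reads, grouped by complex (x axis), with filled points at an authors' FDR under 0.05 and a bar at each median. Most points lie between 0 and 0.3, and NDUFC2 stands highest at 0.76 and 1.19 in the SMARCB1 and double nulls.

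Reads per library showed how the wildtype libraries and the nulls were spread. In all 31 abundant genes with recovered reads, the level was higher in the shallower wildtype library than in the deeper one, by a median of 1.12-fold, whereas over 2365 recovered genes of that abundance the shallower was higher in 1388 and the median was 1.02-fold. In the SMARCB1 null the deeper library was higher for 30 of the 31 genes, by a median of 1.13-fold, and for 61.9% of all 2365. The deeper SMARCA4-null library was higher for 22 of the 31, or 71.0%, near the 68.5% of all 2365, and by a median of 1.04-fold for both. The deeper double-null library was higher for 7 of the 31, or 22.6%, beside 42.3% of all 2365. In wildtype and the SMARCB1 null, the 31 genes thus differed between libraries of the same genotype by about as much as their median ratio between genotypes, and in SMARCA4-null cells they differed by less.

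The deeper SMARCB1-null library stood highest, at a median of 1.22 times the wildtype mean, beside 1.09 in the shallower one, and the medians of all 2365 genes were 1.08 and 1.03. That library also held most reads of the skeletal muscle markers described below, with a summed level of 24.2 RPM against 0.143 to 0.675 in the other 7 libraries, and their part in the rise was not tested. Without it, the median ratio of the 31 genes in the SMARCB1 null was 1.09, with 24 above 1 in place of 29. The deeper double-null library held most reads of 2 neuroendocrine markers, and without it the median of the double null was 1.13.

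Both null libraries lay above both wildtype libraries for 17 of the 31 genes in each null. The shares over all 2365 recovered abundant genes were 40.5%, 35.7% and 37% for the SMARCB1, SMARCA4 and double nulls. Both libraries lay below both wildtype libraries for 1 of the 31 genes in each null, beside 23.9%, 27.8% and 25% of all 2365. Leaving out 1 library at a time, the median ratio of the 31 genes ranged from 1.06 to 1.22 in the SMARCB1 null, 1.03 to 1.15 in SMARCA4-null cells and 1.05 to 1.18 in the double null, beside 1.14, 1.09 and 1.10 with all libraries. Each lowest value came from leaving out the deeper wildtype library. The median over all 2365 genes without that library was 1.04, 0.996 and 1.01.

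**Figure D2:**
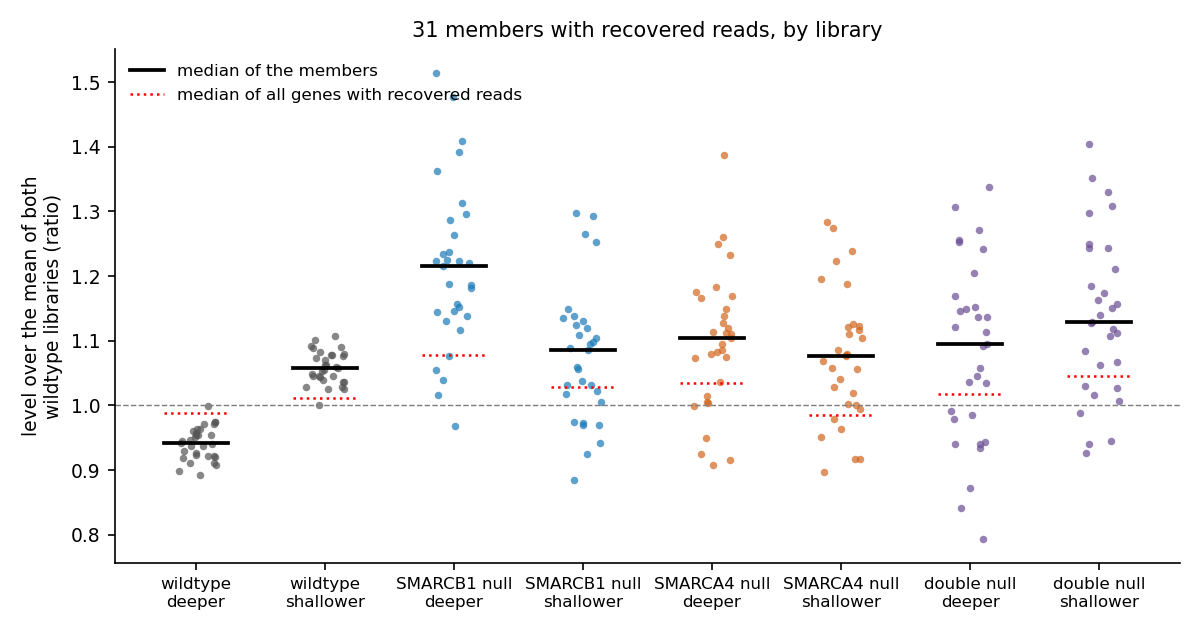
Level of 31 oxidative phosphorylation genes with recovered reads in each of the 8 libraries (x axis), as a ratio to the mean of both wildtype libraries (y axis). Black bars are medians over these genes and dotted red bars medians over 2365 recovered genes; the genes' medians run from 0.942 in the deeper wildtype library to 1.22 in the deeper SMARCB1 null library.

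The scaling of the libraries bears on the size of this shift. With TMM scaling of the recovered reads in edgeR, the median log2 change of all tested genes fell by 0.07 in the SMARCB1 null, 0.03 in SMARCA4-null cells and 0.11 in the double null. The median log2 change of the 31 genes went from 0.19 to 0.13, from 0.12 to 0.09 and from 0.14 to 0.03, with 26, 22 and 19 of the 31 above 0. In the double null the median over all tested genes went from 0.13 to 0.02 with that scaling. In that null the 31 genes were thus close to all tested genes both with and without TMM scaling. Over the 2365 recovered abundant genes, the median log2 ratio in the double null was 0.05 without that scaling, beside 0.14 for the 31 genes. The median over all tested genes went from 0.08 to 0.02 in the SMARCB1 null and from 0.04 to 0.01 in SMARCA4-null cells. In both of these nulls it lay below the median of the 31 genes with either scaling.

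Complex I, the NADH dehydrogenase, had its changes in accessory subunits and in 1 core subunit. In the SMARCB1 null 2 of 40 genes rose (NDUFC2 and NDUFA10), in SMARCA4-null cells 0 of 40 passed in either direction, with 1 at an unadjusted p under 0.05, and in the double null 3 rose (NDUFC2, NDUFC2-KCTD14 and NDUFS4) and 1 fell (NDUFV1), by the FDR of the authors' deposited table. These calls were 5%, 0% and 10% of the 40 genes, beside 13.6%, 11.9% and 18% of all genes called in either direction. The median ratio by the authors' deposited table was 1.12, 1.03 and 1.09 for the SMARCB1, SMARCA4 and double nulls. For the 7 core subunits, which carry the flavin and iron-sulfur clusters, the median was 1.15, 0.987 and 1.04 by the authors' deposited table, and for the 33 accessory genes it was 1.12, 1.04 and 1.10.

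NDUFC2, an accessory subunit of the membrane arm, showed the largest rise of any abundant gene here. Its implied group level, from total reads and ratios, was 67.4 RPM in wildtype, 114 in the SMARCB1 null, 84.0 in SMARCA4-null cells and 154 in the double null. The ratio by the authors' deposited table was 1.695 in the SMARCB1 null (FDR 3.12e-05) and 2.28 in the double null (FDR 9.60e-14). In SMARCA4-null cells it was 1.25 with an FDR of 0.27 by the authors' deposited table. NDUFC2-KCTD14, a readthrough with the neighbouring gene KCTD14 that shares sequence with NDUFC2, had ratios of 1.48, 0.895 and 2.70 (FDR 0.0579, 0.856 and 2.50e-08) by the authors' deposited table from 807 total reads, and the split of reads between these overlapping genes is uncertain.

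The genes beside NDUFC2 on chromosome 11 were examined after its values had been seen. Of the 10 nearest genes of the table in RefSeq order, 3 were called higher in the SMARCB1 null, 4 in SMARCA4-null cells and 5 in the double null. Of these neighbours 0 were called lower, and NDUFC2-KCTD14 itself was among the 5. Over all genes, 7.86%, 7.39% and 12% were called higher. Among the 13 genes called in any null, NDUFC2 had the most neighbours called higher in each null. KCTD21 had ratios of 1.71, 1.65 and 2.32 by the authors' deposited table (FDR 3.98e-12, 1.42e-10 and 8.13e-30). USP35, a deubiquitinase gene, had 1.47, 1.62 and 2.13, and GAB2, a signalling adaptor gene, 2.18, 2.67 and 1.89, each at an FDR under 0.05 by the authors' deposited table. ALG8, the nearest gene on that side, was not called, with ratios of 1.23, 0.953 and 1.18. THRSP, between NDUFC2-KCTD14 and NDUFC2 in this order, had 159 total reads and was not called.

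**Figure D3:**
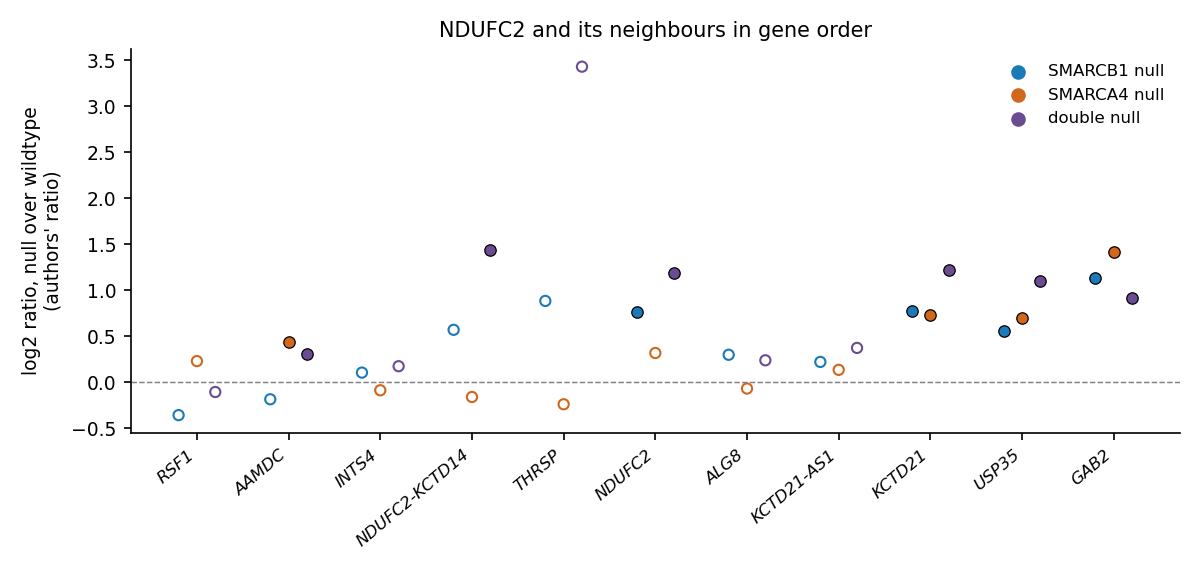
Log2 ratio of each null to wildtype (y axis, the authors' ratio) for NDUFC2 and the 10 nearest genes of the table in gene order (x axis, not to genomic distance). Filled points are called at an authors' FDR under 0.05; KCTD21, USP35 and GAB2 are filled and above 0 in each null.

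NDUFA10, an accessory subunit, was at 72.1 and 79.5 RPM in the deeper and shallower wildtype libraries, 106 and 98.0 in the SMARCB1 null, 85.5 and 80.1 in SMARCA4-null cells, and 84.4 and 85.4 in the double null. Both libraries of each null lay above both wildtype libraries, and those of the SMARCB1 null stood apart from the rest. Its ratio was 1.34 in the SMARCB1 null (FDR 0.0419), 1.09 in SMARCA4-null cells (FDR 0.795) and 1.12 in the double null (FDR 0.567) by the authors' deposited table. With edgeR's quasi-likelihood test on recovered reads, the log2 difference between the SMARCB1 and SMARCA4 nulls was 0.30 ± 0.09 (SE, 2 libraries each, Benjamini-Hochberg adjusted p = 0.0476), where 15.4% of tested genes were called. That call was lost with TMM scaling, which left COX6B2 as the only gene of the 33 called between these 2 nulls, whereas DESeq2 called COX6B2, NDUFA10 and NDUFV2.

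NDUFS4, an accessory subunit needed for a stable complex I, was at 17.5 and 19.7 RPM in wildtype, 21.4 and 21.1 in the SMARCB1 null, 19.99 and 20.5 in SMARCA4-null cells, and 24.9 and 23.1 in the double null. The double-null libraries were the highest of the 8, and no null overlapped wildtype. In the authors' deposited table only the double null passed, with a ratio of 1.29 (FDR 0.0171), beside 1.14 and 1.09 (FDR 0.374 and 0.694) in the SMARCB1 and SMARCA4 nulls.

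NDUFV1, the core subunit that binds FMN and takes electrons from NADH, was the abundant gene that fell. Its implied level was 141 RPM in wildtype, 120 in the SMARCB1 null, 128 in SMARCA4-null cells and 111 in the double null. The ratio in the double null was 0.791 (FDR 0.0497) by the authors' deposited table, just under the threshold, and the ratios of 0.855 and 0.912 in the SMARCB1 and SMARCA4 nulls did not pass (FDR 0.286 and 0.670). GSTP1, the glutathione transferase gene next to it on chromosome 11, looked at after the values were seen, had ratios of 0.429, 0.539 and 0.365 by the authors' deposited table (FDR 1.61e-44, 2.31e-27 and 2.29e-56). NDUFS1, the largest iron-sulfur subunit, had ratios of 1.08, 1.06 and 1.03 and did not pass in any null.

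NDUFA13, an accessory subunit, is shown beside these as a gene with little difference. It was at 47.3 and 51.2 RPM in wildtype, 51.2 and 47.9 in the SMARCB1 null, 49.3 and 51.3 in SMARCA4-null cells, and 48.5 and 52.3 in the double null, so that each null overlapped wildtype. Its ratios of 1.01, 1.02 and 1.02 by the authors' deposited table had an FDR of 0.943 or more.

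**Figure D4:**
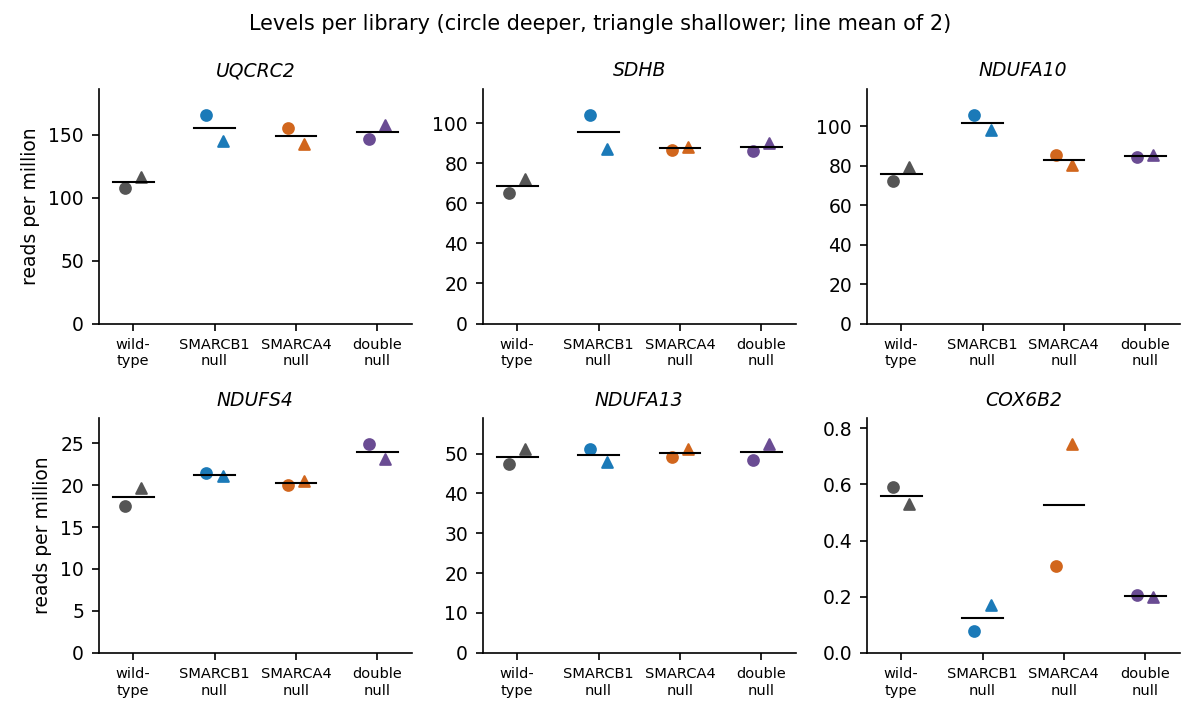
RPM (y axis, from 0) of UQCRC2, SDHB, NDUFA10, NDUFS4, NDUFA13 and COX6B2 in the deeper (circle) and shallower (triangle) library of each genotype (x axis), with a line at the mean of 2 libraries. UQCRC2 runs from 108 to 116 in wildtype and from 143 to 166 in the nulls, whereas NDUFA13 overlaps in each null.

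Complex II, succinate dehydrogenase, also belongs to the citric acid cycle. In the SMARCB1 null 2 of its 4 genes rose and 0 fell by the authors' deposited table. In the SMARCA4 and double nulls 0 of 4 passed by that table, each with 1 gene at an unadjusted p under 0.05. Beside these counts, 7.86%, 7.39% and 12% of all genes were called higher in the SMARCB1, SMARCA4 and double nulls. SDHB, the iron-sulfur subunit, was at 65.0 and 72.4 RPM in wildtype, 104 and 86.9 in the SMARCB1 null, 86.6 and 88.3 in SMARCA4-null cells, and 86.1 and 89.9 in the double null. All 6 null libraries lay above both wildtype libraries. Its ratio was 1.39 in the SMARCB1 null (FDR 0.0274) by the authors' deposited table, and the 1.27 and 1.28 of the SMARCA4 and double nulls did not pass (FDR 0.191 and 0.123). SDHD, a membrane anchor, had a ratio of 1.35 in the SMARCB1 null (FDR 0.0478), 1.02 in SMARCA4-null cells (FDR 1) and 1.17 in the double null (FDR 0.419) by the authors' deposited table. SDHC, the other anchor, had ratios of 0.998, 0.892 and 0.927, and SDHA, the flavoprotein, 1.21, 1.09 and 1.10, and neither passed by the authors' deposited table (FDR 0.184 or more). The 4 subunits of this complex thus did not carry equal ratios in the SMARCB1 null, where they ran from 0.998 to 1.39.

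Complex III, the cytochrome bc1 complex, contained UQCRC2, which passed in each comparison. UQCRC2, a core protein of the complex, was at 108 and 116 RPM in wildtype, 166 and 145 in the SMARCB1 null, 156 and 143 in SMARCA4-null cells, and 146 and 157 in the double null. Every null library lay above both wildtype libraries. Its ratios were 1.39, 1.33 and 1.35 (FDR 0.00255, 0.0137 and 0.00516) by the authors' deposited table. UQCRFS1, the Rieske iron-sulfur protein, had a ratio of 1.32 in the SMARCB1 null (FDR 0.0245) by the authors' deposited table, and 1.12 and 1.17 in the SMARCA4 and double nulls (FDR 0.617 and 0.283). UQCRC1, the partner core protein of UQCRC2, had ratios of 1.25, 1.11 and 1.18 that did not pass by the authors' deposited table (FDR 0.0629, 0.588 and 0.187).

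Over the 9 complex III genes, 2 rose in the SMARCB1 null, 1 in SMARCA4-null cells and 1 in the double null, and 0 fell, by the authors' deposited table. These calls were 22.2%, 11.1% and 11.1% of the 9, beside 7.86%, 7.39% and 12% of all genes called higher. The small subunits were spread around 1, with UQCRQ at 0.982, 0.912 and 0.912 and UQCR10 at 1.205, 1.14 and 1.18 by the authors' deposited table, none of them past the threshold. UQCRH and UQCRHL, near-identical genes for the hinge protein, had ratios between 0.917 and 1.05, and the split of reads between them is uncertain.

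Complex IV, cytochrome c oxidase, had 0 of 11 genes with at least 1000 reads past the threshold in any null by the authors' deposited table. At an unadjusted p under 0.05 these 11 genes numbered 2 in the SMARCB1 null, 0 in SMARCA4-null cells and 1 in the double null. The median ratio of these 11 genes was 1.10, 1.10 and 1.08 by the authors' deposited table, over a range from 0.939 to 1.19. COX5A, a matrix-side subunit and the complex IV gene with the most reads, was at 181 and 191 RPM in wildtype, 210 and 193 in the SMARCB1 null, 207 and 206 in SMARCA4-null cells, and 184 and 216 in the double null. It overlapped wildtype in the double null, and its ratios of 1.08, 1.11 and 1.08 did not pass (FDR 0.468 or more) by the authors' deposited table. COX4I1, the general isoform of subunit 4, was at 140 and 163 RPM in wildtype, 195 and 165 in the SMARCB1 null, 179 and 170 in SMARCA4-null cells, and 177 and 179 in the double null. No null overlapped wildtype, and the ratios of 1.19, 1.15 and 1.18 did not pass (FDR 0.134, 0.310 and 0.146) by the authors' deposited table. NDUFA4, counted by its symbol with complex I and now regarded as a subunit of complex IV, had ratios of 1.16, 1.04 and 1.18 that did not pass by the authors' deposited table.

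The isoforms of complex IV that other tissues use had few reads, from 322 in total for COX6B2 down to 27 for COX8C. COX6B2, the testis isoform of subunit 6B, had 71 and 53 reads in the deeper and shallower wildtype libraries, 8 and 17 in the SMARCB1 null, 42 and 78 in SMARCA4-null cells, and 31 and 22 in the double null. The SMARCB1-null and double-null libraries lay below both wildtype libraries, and those of the SMARCA4 null lay on either side. Its ratio was 0.222 in the SMARCB1 null (FDR 0.00633), 0.940 in SMARCA4-null cells (FDR 0.953) and 0.360 in the double null (FDR 0.102) by the authors' deposited table. By edgeR's quasi-likelihood test on recovered reads, the log2 difference of the SMARCB1 null from the SMARCA4 null was -2.07 ± 0.50 (SE, 2 libraries each, Benjamini-Hochberg adjusted p = 0.0121). Its general partner COX6B1 was at 71.8 and 81.5 RPM in wildtype and had ratios of 1.12, 1.15 and 1.17 that did not pass by the authors' deposited table.

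COX6A2, the heart and skeletal muscle isoform of subunit 6A, had 43 of its 46 reads in the deeper SMARCB1-null library, 3 in the deeper double-null library and 0 in the others. A count of 0 in the deeper wildtype library allows up to 3 reads, or 0.025 RPM, which covers counting error only. The deeper SMARCB1-null library also held most reads of the skeletal muscle markers whose reads could be solved, with 1188 for MYLPF and 1237 for TNNC2, against at most 32 and 52 in any other library. The summed level of the 3 recovered muscle markers, of 20 in the list, was 24.2 RPM there and 0.143 to 0.675 elsewhere, none of the 3 was at 0 in any library, and their part in the COX6A2 reads was not tested. Of the 20 muscle markers, 1, 1 and 0 were called higher for the SMARCB1, SMARCA4 and double nulls by the authors' deposited table, of the 10 neuroendocrine markers 0, 0 and 3, and of 8 markers of the blood lineage from which HAP1 derives 1, 1 and 1. Over all genes, 7.86%, 7.39% and 12% were called higher. COX7B2, a testis isoform, had 27 of its 34 reads in the deeper double-null library, where the neuroendocrine markers CHGA and INA reached 6672 and 39658 reads, against at most 24 and 1949 elsewhere. The 2 recovered neuroendocrine markers, of 10 in the list, summed to 307 RPM in that library and 1.25 to 14.9 in the others, neither was at 0 in any library, and their part was not tested. COX7A1, the muscle isoform of subunit 7A, had 3 to 8 reads per library and COX8C 1 to 6, and neither passed in any null by the authors' deposited table. NDUFA4L2, a hypoxia-induced relative of NDUFA4, had 53 to 173 reads per library and did not pass.

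Complex V, the ATP synthase, had 2 of its 19 genes called higher in the SMARCB1 null, 3 in SMARCA4-null cells and 1 in the double null, and 0 called lower, by the authors' deposited table. These calls were 10.5%, 15.8% and 5.26% of the 19, beside 7.86%, 7.39% and 12% of all genes called higher. ATP5A1 and ATP5B, the alpha and beta subunits of the catalytic head, were the genes with the most reads among the 88. ATP5A1 had an implied level of 514 RPM in wildtype, 607 in the SMARCB1 null, 581 in SMARCA4-null cells and 591 in the double null. Its ratios of 1.18, 1.13 and 1.15 passed in each null (FDR 0.00121, 0.0365 and 0.00890) by the authors' deposited table. ATP5B, at an implied 738 RPM in wildtype, had ratios of 1.12 and 1.12 in the SMARCB1 and SMARCA4 nulls (FDR 0.0110 and 0.0177) and 1.02 in the double null (FDR 0.801) by the authors' deposited table. These were called at ratios smaller than those of many genes that did not pass, such as ATP5G1.

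ATP5E, the epsilon subunit of the central stalk, rose in SMARCA4-null cells. Its implied level was 88.5 RPM in wildtype, 91.4 in the SMARCB1 null, 125 in SMARCA4-null cells and 84.2 in the double null. The ratio of 1.41 passed in SMARCA4-null cells (FDR 0.00614), and those of 1.03 and 0.951 in the SMARCB1 and double nulls did not (FDR 0.942 and 0.834) by the authors' deposited table. SLMO2-ATP5E, a readthrough that shares sequence with ATP5E and was looked at after the values were seen, had 28331 total reads and ratios of 1.64, 1.74 and 1.35 (FDR 0.0712, 0.0333 and 0.354) by the authors' deposited table. A near-identical pseudogene of ATP5E also exists, so the split of reads among these genes is uncertain, and the difference between nulls was not tested. The other stalk subunits, gamma (ATP5C1) and delta (ATP5D), had ratios in SMARCA4-null cells of 1.04 and 1.10 that did not pass by the authors' deposited table.

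The 3 genes ATP5G1, ATP5G2 and ATP5G3 encode the same mature c subunit of the membrane rotor. ATP5G1 had ratios of 1.43, 1.19 and 1.24, ATP5G2 1.08, 1.06 and 1.02, and ATP5G3 1.204, 1.07 and 1.10 by the authors' deposited table. None of the 3 passed, with ATP5G1 in the SMARCB1 null at an FDR of 0.0608. ATP5O, the stalk protein that confers oligomycin sensitivity, was at 109 and 127 RPM in wildtype, 140 and 121 in the SMARCB1 null, 128 and 126 in SMARCA4-null cells, and 135 and 136 in the double null. It overlapped wildtype in the SMARCB1 and SMARCA4 nulls and not in the double null, and its ratios of 1.11, 1.08 and 1.15 did not pass by the authors' deposited table. ATP5S and ATP5SL, which are not subunits, did not pass in any null.

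The calls were tested a further way on recovered reads. With edgeR's quasi-likelihood test and Benjamini-Hochberg adjustment over 4704 genes, 33 of the 88 genes could be tested. In the SMARCB1 null 5 were called (21% of all tested genes), among them the 4 that the authors' deposited table called, and the other was NDUFB10. In SMARCA4-null cells UQCRC2 and SDHB were called (16.2% of all). In the double null 8 were called (26.9% of all), namely UQCRC2, NDUFS4, SDHB, NDUFA1, NDUFA6, NDUFA8, NDUFB10 and, lower, COX6B2. Of all calls in the double null, 71.0% were higher, and 54.3% were higher with TMM scaling. Only UQCRC2 and COX6B2 of the 8 stayed called with TMM scaling. For UQCRC2 the log2 change was 0.47 ± 0.10, 0.41 ± 0.10 and 0.44 ± 0.10 (SE, 2 libraries a group) for the SMARCB1, SMARCA4 and double nulls, with Benjamini-Hochberg adjusted p of 0.00297, 0.00876 and 0.00391 by edgeR. Between the double null and the SMARCB1 null, edgeR called 0 of the 33 genes (4.42% of all tested), with 1 at an unadjusted p under 0.05, and DESeq2 called NDUFA10 lower. Between the double null and the SMARCA4 null it called 0 as well (14.5% of all), with 4 at an unadjusted p under 0.05, and DESeq2 called COX6A1 lower. Leaving out 1 library lowered or raised the calls over all genes, depending on the library and the null. The fits given next left 0 of the 33 called in the null named. Without the deeper wildtype library, edgeR called 0 of the 33 in any null, and 5.46%, 3.96% and 8.33% of all tested genes for the SMARCB1, SMARCA4 and double nulls. It also called 0 of the 33 in the SMARCB1 null without the deeper SMARCB1-null library (7.92% of all). In SMARCA4-null cells it called 0 without the deeper or the shallower of their own libraries (5.32% and 4.34% of all) and 0 without the shallower wildtype library (3.31%), which also left 0 in the double null (7.43%). Over all fits that left out 1 library, the log2 change of UQCRC2 ran from 0.35 to 0.56 over the 3 nulls, and its adjusted p by edgeR reached 0.101, 0.170 and 0.104 for the SMARCB1, SMARCA4 and double nulls.

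The genes that assemble and support the complexes were counted from lists by the FDR of the authors' deposited table. Over all genes, 13.6%, 11.9% and 18% were called for the SMARCB1, SMARCA4 and double nulls. Among 46 assembly factors, 3 rose and 0 fell in the SMARCB1 null, 1 rose and 2 fell in SMARCA4-null cells, and 3 rose and 2 fell in the double null. These calls were 6.52%, 6.52% and 10.9% of the list. ATPAF2, a chaperone for the ATP synthase alpha subunit, rose in each comparison, with ratios of 1.41, 1.24 and 1.45 by the authors' deposited table (FDR 9.86e-07, 0.00576 and 8.32e-08). NUBPL, which delivers iron-sulfur clusters to complex I, had ratios of 1.04, 0.720 and 0.891 and fell in the SMARCA4 and double nulls (FDR 6.35e-18 and 0.00180) by the authors' deposited table. COX18, which inserts the COX2 protein into the membrane, had ratios of 1.35, 0.888 and 1.29 and rose in the SMARCB1 and double nulls (FDR 2.21e-09 and 6.05e-07) by the authors' deposited table.

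Among 77 mitochondrial ribosomal protein genes, which translate the subunits encoded in mitochondrial DNA, 2 rose and 0 fell in the SMARCB1 null, 1 rose and 1 fell in SMARCA4-null cells, and 2 rose and 2 fell in the double null. Their median ratio was 1.16, 1.02 and 1.07 by the authors' deposited table. The shares of these 77 genes called were 2.6%, 2.6% and 5.19%, beside 13.6%, 11.9% and 18% of all genes. Of 25 genes of mitochondrial protein import, TIMM44 rose in the SMARCB1 null (ratio 1.40, FDR 0.0223) by the authors' deposited table and 0 passed in the SMARCA4 or double null, with 0 and 1 at an unadjusted p under 0.05. Among 17 regulators of mitochondrial DNA expression and biogenesis, 0 rose in any null, and 1, 3 and 2 fell. These calls were 5.88%, 17.6% and 11.8% of the list, beside the same shares of all genes. TFAM, which packages and transcribes mitochondrial DNA, had ratios of 0.886, 0.765 and 0.782 and fell in the SMARCA4 and double nulls (FDR 0.0278 and 0.0350) by the authors' deposited table. GABPB1, a subunit of the GABP factor, had ratios of 0.828, 0.853 and 0.823 (FDR 0.000943, 0.00891 and 0.000476) by the authors' deposited table and fell in each comparison.

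Upstream of the respiratory chain, 18 genes of pyruvate dehydrogenase and the citric acid cycle had 3, 2 and 2 rises and 0, 1 and 1 falls for the SMARCB1, SMARCA4 and double nulls. The share called was 16.7% in each null, beside 13.6%, 11.9% and 18% of all genes. FH, fumarate hydratase, which acts on the product of complex II, had ratios of 0.796, 0.759 and 0.760 and fell in the SMARCA4 and double nulls (FDR 0.0335 and 0.0250) by the authors' deposited table. Of 13 ubiquinone genes, 1, 1 and 2 rose and 0 fell, or 7.69%, 7.69% and 15.4% of the list. PDSS2, which makes the isoprenoid tail, had ratios of 1.94, 1.39 and 1.86. It passed in the SMARCB1 and double nulls (FDR 0.00765 and 0.0123) by the authors' deposited table. ETFDH, which feeds electrons from fatty acid oxidation to ubiquinone, rose in the SMARCB1 and double nulls with ratios of 1.44 and 1.40 (FDR 3.04e-23 and 1.85e-21) by the authors' deposited table, as the only call among 10 electron carriers and subunits outside the symbol rule.

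Glycolysis is the other main route to ATP. Of 17 glycolytic genes, 7 rose and 0 fell in SMARCA4-null cells, 0 rose and 5 fell in the double null, and 1 rose and 1 fell in the SMARCB1 null, by the FDR of the authors' deposited table. The shares of all genes that rose were 7.86%, 7.39% and 12% for the SMARCB1, SMARCA4 and double nulls, and 5.76%, 4.49% and 5.97% fell. PGK1, which makes ATP in glycolysis, had ratios of 1.03, 1.33 and 0.751 by the authors' deposited table and passed in SMARCA4-null cells (FDR 6.89e-06) and the double null (FDR 1.88e-05). The median ratio of the 17 genes was 0.940, 1.2 and 0.900, beside 1.12, 1.06 and 1.09 for the 88 oxidative phosphorylation genes by the authors' deposited table. The difference between nulls was not tested for this list.

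**Figure D5:**
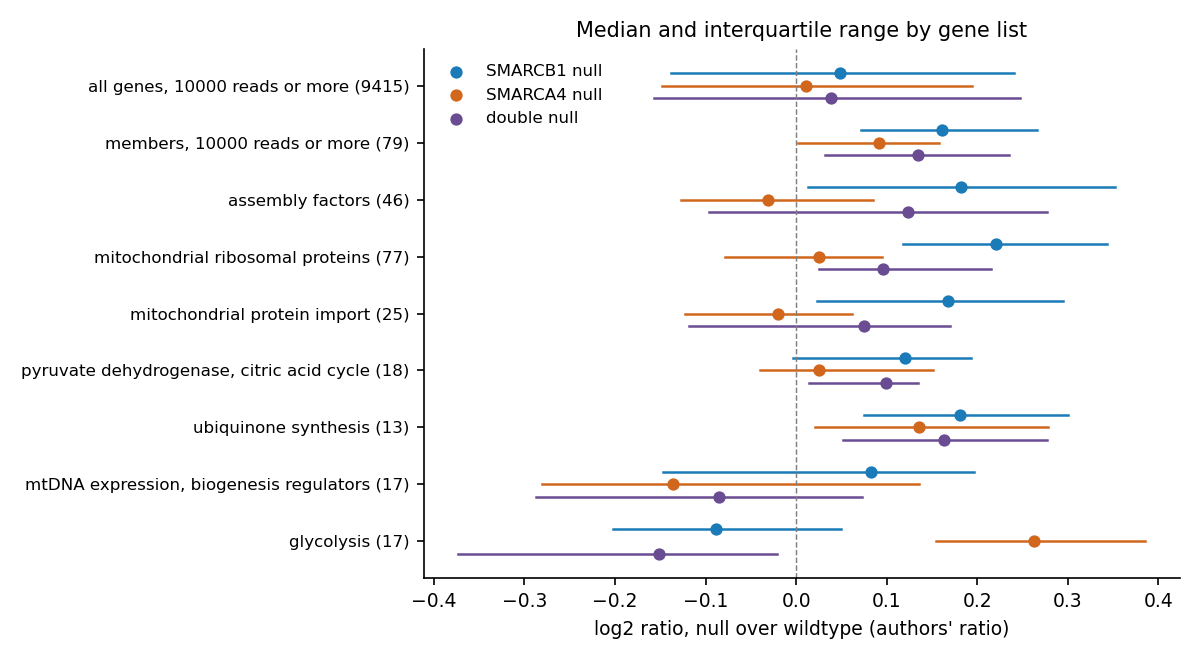
Median (point) and interquartile range (line) of the log2 ratio of each null to wildtype (x axis, the authors' ratio) for abundant genes, abundant oxidative phosphorylation genes and the companion lists, with the number of genes in brackets. The oxidative phosphorylation medians lie at 0.16, 0.09 and 0.13, and glycolysis at -0.09, 0.26 and -0.15, for the SMARCB1, SMARCA4 and double nulls.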

How the data were processed

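RNA of 8 HAP1 samples in 4 groups was sequenced with a stranded mRNA kit, per the labels' protocols; STAR, Partek 4.0 and hg19 are named in the submitters' processing notes. The statistical test and the scaling were not given in the sources used here. Per the file headers, the deposited tables hold for each gene the total reads (an estimated count), and for each null against wildtype a p-value, an FDR, a ratio and a signed fold score, which the authors computed. Adjusting those p-values over 19541 genes by the Benjamini-Hochberg method returned the deposited FDR. "Called", "rose" and "fell" mean an FDR under 0.05. The table gives no standard error. The table of 409 filtered genes held 0 of the genes described.

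Values of the authors were counted by complex. The named genes are those called, the 2 with the most reads in each complex, the tissue isoforms, up to 4 called genes of each companion list, and the targets; 1 gene that this rule names is not reported here. Others, namely NDUFA13, NDUFS1, NDUFB10, the ATP5G genes, the remaining stalk and small subunits, and the neighbours of NDUFC2, NDUFV1 and ATP5E, were chosen after their values were seen. The genes and lists were chosen with earlier results of these data known.

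Reads per library were recovered after seeing the data. A ratio is the quotient of group means of RPM (reads scaled to a depth of 1000000), each plus 0.0001, so genes that differ by a read gave the depth of each library to 6 significant digits. Whole reads that meet the total and all 3 ratios were then solved with a lattice reduction (sympy 1.14.0) for 6203 of 7631 genes with whole totals, and kept only if no shifted copy of the ratios also solved. The implied level of other genes came from total and ratios, with a median error of 0.291% in wildtype on 3326 recovered genes with at least 1000 reads. No pair of libraries held the same reads. The quasi-likelihood test of edgeR 4.0.16 in R 4.3.3 was run on these reads over all 8 libraries, with robust fitting, filterByExpr and the depths implied by the ratios, and with TMM, no filter, DESeq2 1.42.0 and each library left out as alternatives. The scripts were tested on simulated data. Neighbours were taken 5 to each side in RefSeq order.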

Additional observations from a re-analysis of the deposited data

How the results depend on the processing

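No paired analysis was possible because the recovered libraries are told apart by depth alone and carry no replicate letter. The counts of called genes moved with the threshold of the authors' FDR. In the SMARCB1 null 8 rises became 3 at an FDR under 0.01 and 13 under 0.1, and the fall of COX6B2 was not counted (0) when the adjustment ran over genes with at least 500 total reads, since it has fewer. In the SMARCA4 null 4 rises became 1 under 0.01 and 2 with a fold of at least 1.2 as well, and in the double null the fall of NDUFV1 was lost (0) under 0.01. Dividing by the median ratio of genes with at least 1000 reads (1.03, 1.02 and 1.06) kept the direction of each called gene and moved the median log2 ratio of the double null from 0.12 to 0.0448; the cause was not tested.

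Among the 33 genes tested on recovered reads, the authors' FDR called 1 higher in the SMARCA4 null, beside 2 by edgeR with the authors' depths or TMM and 3 by DESeq2. In the double null it called 2 higher and 0 lower, beside 7 and 1 by edgeR, 1 and 1 with TMM and 1 and 1 with DESeq2. Leaving out 1 library in edgeR gave 0 to 4 rises and 0 to 1 fall in the SMARCB1 null, 0 to 2 rises in the SMARCA4 null and 0 to 4 rises in the double null. The median log2 ratio of the 31 abundant genes then ranged from 0.09 to 0.28, 0.0423 to 0.20 and 0.0695 to 0.24. For COX7A1 and COX8C, with at most 8 reads in any library, no difference was detectable at this depth. A fit with a replicate block was not run.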
